A study of Mus musculus with 4 samples.

Results

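CD8 T cells, the T lymphocytes that carry the co-receptor CD8, were examined in lungs injured with bleomycin. A cell was counted as a CD8 T cell when it held at least 1 unique molecular identifier (UMI, a counted RNA molecule) of Cd3e, at least 1 of Cd8a or Cd8b1, and none of Foxp3, Cd4, Cd79a, C1qa, Cdh5, Pdgfra and Epcam, which mark regulatory and CD4 T cells, B cells, macrophages, endothelial cells, fibroblasts and epithelial cells. This rule found 179 cells among the 30860 that had 200 to 7500 genes and at most 15% mitochondrial UMIs. The cells were thus chosen by their UMIs of these 10 genes, and the 10 genes were left out of every test.

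A CD8 T cell recognizes peptides on MHC class I through its T cell receptor, with the CD8 alpha and beta chains as co-receptor. Naive CD8 T cells recirculate through lymphoid organs, guided by CCR7, whereas effector and memory cells enter tissues such as the lung, kill target cells with perforin and granzymes, and secrete chemokines such as CCL5. NK cells share the killing machinery but have no T cell receptor, and conventional CD4 T cells share the receptor but mostly help other immune cells.

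The cells came from 4 mice, 2 wild-type (WT) and 2 Tubb3-/-, each 14 days after 0.8 U/kg of bleomycin into the trachea, so that no uninjured lung was included. The Tubb3-/- mice were homozygous for a Cre cassette knocked into Tubb3, which therefore is lost from every cell type, and the WT mice were their littermates, young adults of both sexes. Each mouse gave a sample of whole lung cells, depleted of TER-119+ cells, and a mural cell-enriched sample, from which cells with EpCAM, CD45, CD31 or TER-119 had been removed. Cells were tagged by mouse, pooled over the 4 mice within each kind of sample before capture and separated again by the tag, so that a library below is the cells of 1 mouse in 1 pool. The tag listed for the mouse was the highest in all but 5 of 32121 cells, and the mapping of matrices to mice rests on these tags. The study asked how loss of Tubb3 changes the cells around pericytes, one candidate signal being CXCL10, whose receptor is CXCR3. Each replicate is a separate mouse, and with 2 mice a group the smallest p that an exact permutation test can give is 0.3333.

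The targeted gene, Tubb3, had 1.93 and 0.868 CPM (UMIs per 1000000 UMIs of all genes) in whole WT lungs against 0.262 and 0.321 CPM in whole Tubb3-/- lungs. No barcode was shared between libraries of a pool, and Scrublet marked none of the 179 cells as a doublet. CD8 T cells were nearly all in the whole-cell libraries, where WT mice 1 and 2 gave 67 and 27 of them and Tubb3-/- mice 1 and 2 gave 50 and 34, together 1.26% of 14160 cells. The CD45-depleted libraries held 1 of 16700 cells, in WT mouse 2 (0.00599%, exact 95% interval 0.000152% to 0.0334%). Median UMIs per CD8 T cell were 8156 and 8620 (WT) and 7914 and 8076.5 (Tubb3-/-), more than the 6106 to 6405.5 of conventional CD4 T cells and the 5165 to 5787 of NK cells. Intervals cover counting error only.

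Genes that the rule did not use were checked first. Trbc2, a constant segment of the T cell receptor beta chain, had a UMI in 173 of the 179 cells (96.6%) and Trac, that of the alpha chain, in 134 (74.9%). The rule nevertheless admitted other cells. Trdc, the constant segment of the delta chain, was present in 10 cells, 6 of which had no Trac, and Ncr1 and Klrb1c, receptors of NK cells, were present in 7 cells each. At least 1% of the UMIs lay in the marker list of a non-T cell type in 8 cells (4.47%), a cutoff set after the data were seen. They comprised 3 cells in WT mouse 1, 3 in Tubb3-/- mouse 1 and 2 in Tubb3-/- mouse 2, and had 11855 to 26350 UMIs. Among these signals were 484 UMIs of the macrophage gene Lyz2 in a cell of Tubb3-/- mouse 1 and 354 in a cell of WT mouse 1, and in the other cells of Tubb3-/- mouse 1 310 UMIs of the smooth muscle actin gene Acta2 and 236 of the MHC class II chaperone Cd74. Lyz2 of macrophages had 1091 and 454 CPM in the summed CD8 T cells of the WT mice and 1558 and 1011 CPM in those of the Tubb3-/- mice. The summed levels of the macrophage list were 1298 and 630 CPM in WT and 2422 and 1327 CPM in Tubb3-/- mice. Each of its 8 genes was found in some mouse, but C1qb, C1qc and Ear2 were at 0 in WT mouse 2. The part of these signals of other cells in the results below was not tested beyond leaving out the 8 cells.

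The boundary of the group was set by few molecules. Of the 179 cells, 46 had a single Cd3e UMI and 25 a single CD8 UMI, and 112 had both Cd8a (chr6:71373427-71379173, mm10) and Cd8b1 (chr6:71322788-71337494), 51 Cd8b1 alone and 16 Cd8a alone. In all, 393 cells held Cd3e and CD8 UMIs, of which 214 were left out because of another marker, 73 of them for a single UMI. Cdh5 was present in 75 of the cells left out, Cd4 in 71, Foxp3 in 39, Epcam in 38, Pdgfra in 37, C1qa in 30 and Cd79a in 16.

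The shares of CD8 T cells among lung cells overlapped between the genotypes, with 1 WT mouse above the rest. The share of kept cells was 1.97% in WT mouse 1 (exact 95% interval 1.53% to 2.49%) and 0.866% in WT mouse 2 (0.571% to 1.26%). It was 1.20% (0.889% to 1.57%) and 0.984% (0.682% to 1.37%) in the Tubb3-/- mice, both between the WT values. Means of WT and Tubb3-/- mice were 1.42% ± 0.779 and 1.09% ± 0.150 (SD, n = 2 each), which differed by -0.326 percentage points (exact permutation test, two-sided, p = 1). Without WT mouse 1 the difference turned to 0.224. Per 100 conventional CD4 T cells there were 75.3 and 52.9 CD8 T cells (WT) and 65.8 and 58.6 (Tubb3-/-), again with overlap.

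As a share of cells with a Cd3e UMI and per NK cell the groups did not overlap. Of the cells with a Cd3e UMI, CD8 T cells made up 12.7% and 8.52% in WT and 7.91% and 7.93% in Tubb3-/- mice (exact permutation test, p = 0.3333, the smallest possible). NK cells, which had Ncr1 and lacked CD3 genes, made up 1.91% and 2.40% of kept cells of WT lungs and 1.01% and 0.810% of Tubb3-/- lungs (p = 0.3333 by the exact permutation test). Per 100 NK cells there were thus 103.1 and 36.0 CD8 T cells in WT and 119 and 121 in Tubb3-/- mice (exact permutation test, p = 0.3333). As shares of kept cells, the NK values thus did not overlap between the genotypes and the CD8 values did.

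**Figure D1:**
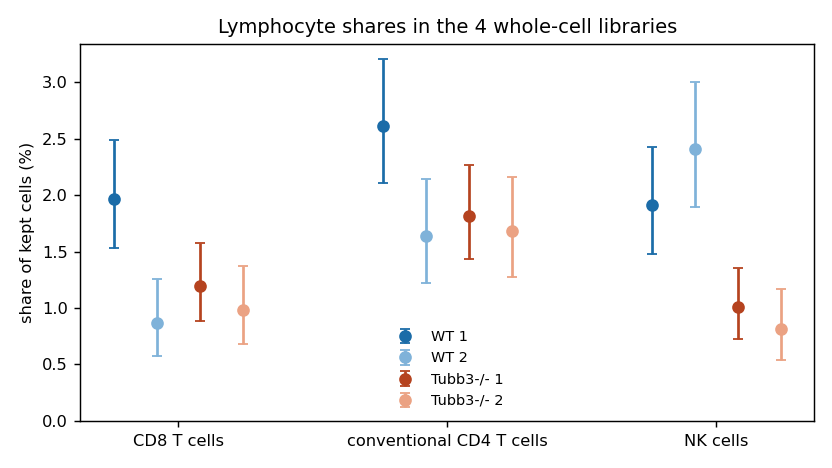
Share of kept whole-lung cells (%, y axis) that were CD8 T cells, conventional CD4 T cells or NK cells in each of the 4 mice. Points are single mice and bars exact 95% binomial intervals. The CD8 shares of the Tubb3-/- mice (1.20% and 0.984%) lie between those of the WT mice, whereas both NK shares lie below those of the WT mice.

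To see what sets CD8 T cells apart from their nearest relatives, UMIs were summed per mouse over CD8 T cells and over conventional CD4 T cells (Cd3e and Cd4, without CD8 or Foxp3) of the whole-cell libraries and compared within mice by the quasi-likelihood test of edgeR. CD8 T cells had more RNA of cytotoxic genes, of naive T cell genes and of Ly6c2, and less of the costimulatory and helper genes of CD4 T cells. At an adjusted p under 0.05 (Benjamini-Hochberg), 405 of 5547 genes differed (7.3%), 218 higher in CD8 (3.93%) and 187 lower (3.37%), with a median log2 fold change of 0.0109 over all genes. Without WT mouse 1, 237 genes differed, and without Tubb3-/- mouse 1, 235, where each gene named as largest below was still called. Levels are CPM scaled by the TMM factors of edgeR, as the mean ± SD of 4 mice. The CD4 T cells held RNA of other cells too, and 10 of 278 (3.6%, all libraries) had at least 1% of their UMIs in another cell type's list. In their sums the macrophage list was at 1147 to 7399 CPM, and the red blood cell list reached 11010 CPM in Tubb3-/- mouse 1. Regulatory T cells were left out only by the lack of a Foxp3 UMI, and their part in the CD4 levels was not tested.

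Of the 17 cytotoxic genes tested, 11 were higher in CD8 T cells and 0 lower, with a median log2 fold change of 1.37. Ccl5 (chr11:83525778-83530518), a chemokine of effector T cells, had 3313, 2968, 2318 and 3291 CPM in the CD8 T cells of WT mice 1 and 2 and Tubb3-/- mice 1 and 2, and 184, 401, 380 and 496 CPM in their CD4 T cells. The lowest CD8 value was above the highest CD4 value, and the log2 fold change was 3.08 ± 0.21 (SE; edgeR, adjusted p = 6.42e-06). Klrd1, the CD94 chain of NK receptors, had 187 ± 30.2 CPM against 14.8 ± 5.76 CPM. Gzma, a granzyme, had 178, 474, 467 and 445 CPM in CD8 and 7.94, 27.0, 54.1 and 135 CPM in CD4 T cells, without overlap, although 1 mouse of each population stood apart. Ccl4, another chemokine, differed by 3.01 on the log2 scale. Nkg7, a protein of cytotoxic granules, had 490 ± 37.3 CPM against 127 ± 82.5 CPM (2.03 ± 0.26, SE). Gzmb, Prf1 (perforin), Ctsw, Klrk1 (NKG2D), Cx3cr1 and Serpinb6b were the other members called higher. Tbx21, the T-bet factor of effector cells, was at 64.6 ± 29.4 and 42.2 ± 12.1 CPM, and its difference did not pass (edgeR, adjusted p = 0.484).

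The naive and recirculating list was also higher, with 7 of 12 tested genes called higher, 0 lower and a median of 0.426. Ccr7, the homing receptor for lymph nodes, had 532 ± 155 against 285 ± 108 CPM (log2 fold change 0.94), and was higher in the CD8 than in the CD4 T cells of every mouse. The transcription factors Lef1 (1172 ± 322 against 761 ± 179 CPM), Satb1, Bach2, Foxp1 and Klf2 were higher by 0.36 to 0.61 on the log2 scale. Tcf7 and Il7r, the interleukin-7 receptor, did not pass (edgeR, adjusted p = 0.924 and 0.661).

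Ly6c2, a surface protein of memory CD8 T cells, had 320, 352, 378 and 396 CPM in CD8 T cells and 39.7, 9.84, 19.7 and 23.6 CPM in CD4 T cells. This difference of 3.89 ± 0.25 on the log2 scale (SE; edgeR, adjusted p = 6.42e-06) came without overlap, but Ly6c2 has a close copy, Ly6c1, with which reads may be shared. Of its list of virtual memory and innate-like genes, 8 were tested, and Il2rb, the shared beta chain of the interleukin-2 and -15 receptors, was also higher (257 ± 52.9 against 123 ± 26.6 CPM), whereas Cd44, Il18r1 and Ly6a were lower. Cxcr3 had 28.6 ± 6.86 against 41.4 ± 20.0 CPM and did not pass (edgeR, adjusted p = 0.446). Runx3, the factor that silences Cd4 in the CD8 lineage, had 163 ± 31.7 against 86.2 ± 17.9 CPM (0.96 ± 0.18, SE). The largest difference among genes higher in CD8 T cells at a mean of 50 CPM or more was that of Bend4, a BEN domain protein, with 213, 132, 122 and 111 CPM in CD8 and 1.59, 12.3, 0 and 6.44 CPM in CD4 T cells. Fam241a and the phosphodiesterase gene Pde2a were seventh and eighth in that order, with log2 fold changes of 2.94 and 2.55.

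Of 8 CD4 helper genes tested, 7 were lower in CD8 T cells, with a median of -2.10. Tnfrsf4, which encodes the costimulator OX40, had 10.5, 9.39, 28.1 and 0 CPM in CD8 and 278, 229, 272 and 133 CPM in CD4 T cells, without overlap. Cd40lg, through which CD4 T cells help B cells, had 23.1 ± 16.5 against 194 ± 45.8 CPM. Gata3, the factor of type 2 helper cells, had 29.3 ± 11.6 against 188 ± 60.1 CPM, and Ctla4, Rora, Icos and Bcl6 were lower as well. The cytokine gene Tnfsf11 (RANKL), the costimulator Tnfrsf9, Nav2 and Trerf1 were among the largest differences, with log2 fold changes of -2.97, -2.96, -3.12 and -2.33. The chemokine receptors Ccr8 and Ccr4 were 3.66 and 3.48 lower on the log2 scale and near 5 CPM in CD8 T cells. Of 6 genes of inhibitory receptors and exhaustion, 3 were lower, among them Pdcd1 (PD-1) at 34.1 ± 24.0 against 83.2 ± 31.6 CPM and Tox at 162 ± 19.5 against 459 ± 107 CPM besides Ctla4, and 1, Entpd1 (CD39), was higher by 1.51 on the log2 scale. Of 9 residency genes, Runx3 was higher, and Rgs1, Cxcr6, Ahr and Itgb7 were lower. Mki67, a marker of dividing cells, had 3 UMIs in all CD8 sums and 93 in all CD4 sums and was too low for a test.

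Among 17 genes of the T cell receptor and its signalling, 4 were lower in CD8 T cells (median -0.300) and 0 higher. Trac had 212, 296, 232 and 254 CPM in CD8 and 476, 413, 439 and 503 CPM in CD4 T cells (-0.90 ± 0.14, SE), while Trbc2 had 931 ± 103 and 964 ± 103 CPM. Trbc1 and Trbc2 are close copies, and their split is uncertain. Cd5, Cd28 and Skap1, which tune or relay the receptor signal, were the other genes lower, while the kinase gene Lck and the CD3 chain Cd3d did not pass (edgeR, adjusted p = 0.816 and 0.486). Immediate-early genes such as Fos and Jun did not pass either, and the 4 members of that list that were lower were Cd40lg, Icos, Tnfrsf9 and Tnfrsf4.

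**Figure D2:**
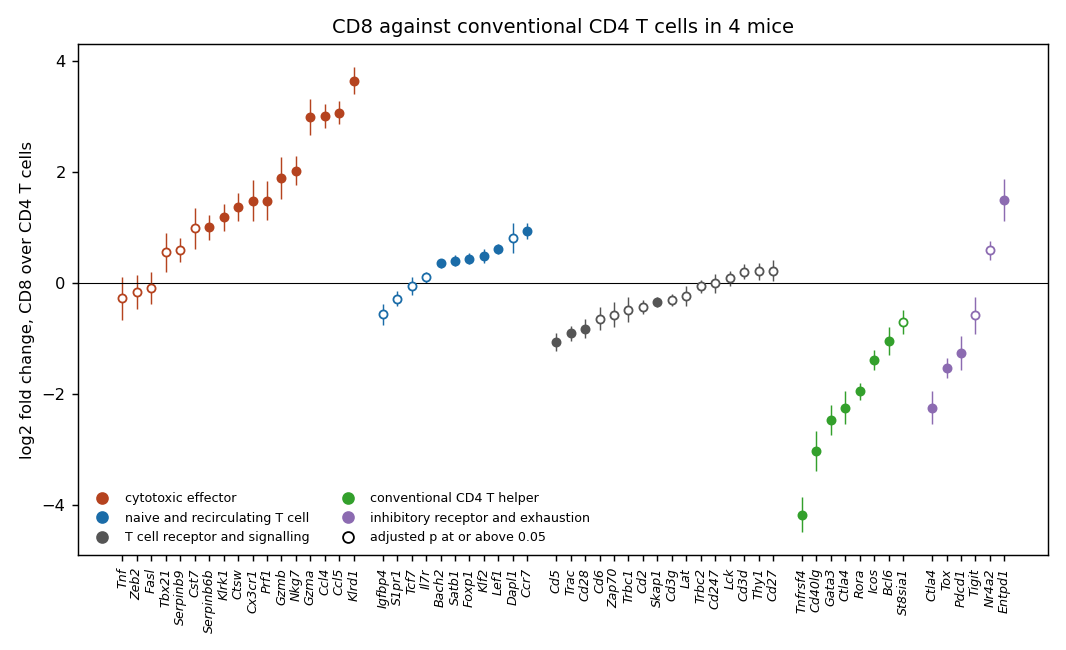
Log2 fold change of CD8 over conventional CD4 T cells (y axis) for tested genes of 5 lists (x axis), with SE bars, from sums of 4 mice each. Filled points passed an adjusted p of 0.05. Cytotoxic genes reach 3.65 (Klrd1) and helper genes -4.18 (Tnfrsf4).

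Promoters of the cytotoxic genes Nkg7 and Gzma are given since RUNX3 and the T-box factors T-bet and EOMES act on CD8 T cells. The windows are the 250 bases before the start site in RefSeq (GRCm38.p6), for Nkg7 at chr7:43436888-43437137 on the plus strand and for Gzma at chr13:113100982-113101231 on the minus strand. Capitals mark the letters TGTGGT (RUNX) or GGTGTGA (T-box) on either strand.
Nkg7: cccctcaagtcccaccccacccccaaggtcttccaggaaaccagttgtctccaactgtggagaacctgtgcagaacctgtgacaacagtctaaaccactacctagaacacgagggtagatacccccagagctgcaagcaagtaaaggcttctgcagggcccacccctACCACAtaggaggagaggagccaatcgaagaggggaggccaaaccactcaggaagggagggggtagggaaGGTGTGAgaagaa
Gzma: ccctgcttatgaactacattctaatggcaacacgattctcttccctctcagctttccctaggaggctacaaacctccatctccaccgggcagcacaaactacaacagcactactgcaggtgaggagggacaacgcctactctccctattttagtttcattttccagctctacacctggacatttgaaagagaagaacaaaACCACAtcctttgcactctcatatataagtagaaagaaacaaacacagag
The RUNX letters lie on the reverse strand at -83 to -78 of Nkg7 and at -50 to -45 of Gzma, and the T-box letters at -13 to -7 of Nkg7. In GENCODE vM21, Nkg7 starts earlier, at chr7:43437073, so that the T-box letters lie within the gene in that annotation. The window of Cd8a, searched in the same way and not printed, held neither. The RUNX letters were in 14.7% of the 163 windows of genes higher in CD8, 11.6% of the 138 windows of genes lower, 10.3% of the 4448 windows of tested genes and 14.2% of all 27025 windows. The shares for the T-box letters were 4.29%, 4.35%, 2.81% and 3.31%. A match describes letters in a window and not a bound site.

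Against NK cells, the other cytotoxic lymphocytes of the lung, CD8 T cells had far less RNA of the killing machinery and more of T cell receptor and naive T cell genes. Of 5524 genes tested in the same way, 1309 differed (23.7%), 631 higher in CD8 (11.4%) and 678 lower (12.3%), and the median log2 fold change over all genes was -0.00125.

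Of 22 cytotoxic genes, 21 were lower in CD8 T cells and 0 higher (median -2.42). Gzma had 411 ± 149 against 6574 ± 1808 CPM (log2 fold change -4.04), Prf1 73.1 ± 12.4 against 799 ± 170 CPM (-3.41) and Gzmb 70.5 ± 36.8 against 606 ± 188 CPM (-2.996). Ccl5 had 3122 ± 491 against 10740 ± 3671 CPM, so that it was 1.73 lower on the log2 scale than in NK cells although 3.08 higher than in CD4 T cells. Ifng, the gene of interferon gamma, had 17.5 ± 5.44 against 168 ± 73.5 CPM. Cx3cr1 did not pass (edgeR, adjusted p = 0.635).

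Receptor genes of NK cells were among the largest differences, with 10 of 11 genes of the NK list lower (median -4.04). Klra4, a Ly49 receptor, had 0, 0, 22.1 and 0 CPM in the CD8 T cells of the 4 mice and 520, 1091, 956 and 716 CPM in their NK cells. Klrb1b, Klri2, Klra8, Klra3 and Klrb1c, further receptors of these families, had log2 fold changes from -6.27 to -5.14, and the factor Eya1 and the protease gene Cma1 had -5.77 and -4.96. Members of the Ly49 and Klrb1 families are close copies, so that reads may be split between them. Txk, a kinase of T and NK cells, did not pass (0.09, edgeR, adjusted p = 0.710), while it was higher in CD8 than in CD4 T cells (504 ± 36.2 against 240 ± 28.8 CPM). Eomes had 35.5 ± 10.96 against 237 ± 35.4 CPM. Ly6c2 had 380 ± 34.1 against 286 ± 84.3 CPM and did not pass (edgeR, adjusted p = 0.0996), unlike the large difference from CD4 T cells.

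T cell genes were higher. Of 15 receptor and signalling genes, 12 were higher in CD8 T cells (median 2.30). Cd5 had 93.8, 98.9, 110 and 157 CPM in CD8 T cells and no UMI in any NK sum, which makes it at least 51.2-fold higher against a floor of 3 counts over the NK sums. Dapl1, a gene of naive T cells, was likewise at 0 in NK cells and at least 67.3-fold higher. Themis, needed for T cell development, had 377, 416, 469 and 529 CPM against 0, 8.05, 2.64 and 0 CPM, and Bcl11b, the factor that keeps T cell identity, had 210 ± 60.6 against 1.49 ± 1.90 CPM. Cd6, a relative of Cd5, Fam169b, Klk8 and Gm8369 were also among the 8 largest differences, with log2 fold changes of 6.36, 7.41, 6.51 and 6.20. Of 12 naive genes, 11 were higher and 0 lower (median 1.93). Il7r had 1011 ± 136 against 47.4 ± 39.3 CPM and Lef1 1231 ± 341 against 150 ± 41.5 CPM. Cxcr6, a receptor of tissue T cells, had 94.6 ± 30.0 against 7.12 ± 8.48 CPM, whereas Ccr2 was lower by 2.30 on the log2 scale.

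RNA of macrophages was higher in the NK than in the CD8 sum of each mouse. The macrophage list reached 2142 to 17780 CPM in NK cells against 630 to 2422 CPM in CD8 T cells. Counting the lists of all other cell types, 17 of 217 NK cells of all libraries (7.83%) had at least 1% of their UMIs in 1 list. Without these cells and the 8 CD8 T cells, 1317 genes differed, and each of the 16 genes with the largest differences remained called.

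**Figure D3:**
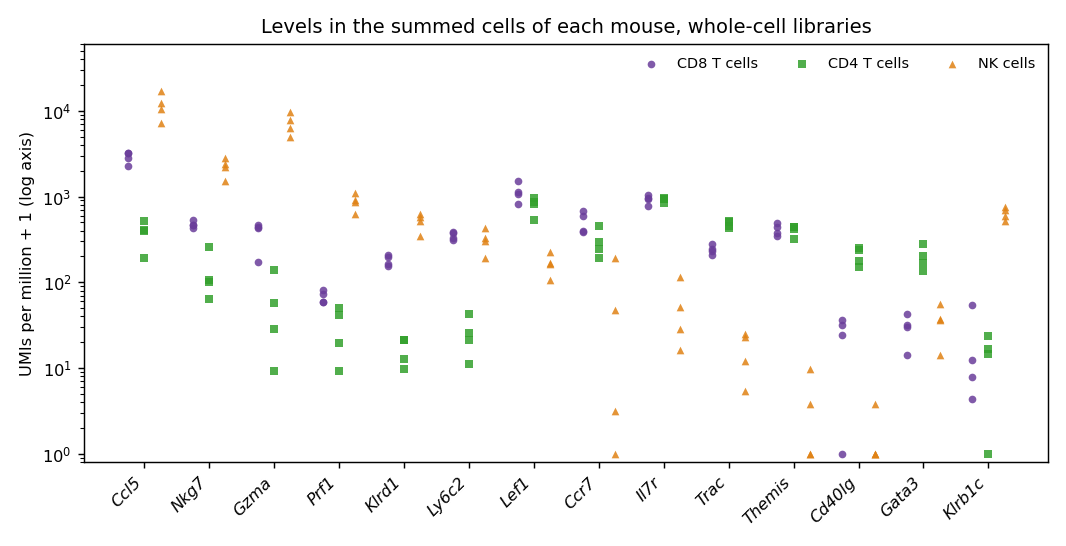
Level of 14 genes (CPM plus 1, log axis) in the summed CD8 T cells, conventional CD4 T cells and NK cells of each of the 4 mice. Each point is 1 mouse. For Ccl5, Nkg7, Gzma and Prf1 the CD8 points lie between those of CD4 T cells and NK cells, and for Ly6c2 they overlap those of NK cells.

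The CD8 T cells were not uniform in Ccl5. It had no UMI in 89 cells, 1 or 2 in 21 cells, 3 to 9 in 17, 10 to 49 in 20 and 50 to 391 in 32. B cells, which should lack it, had a UMI in 18.1% of 1110 cells, against 50.3% of CD8 T cells. The split by Ccl5 that follows therefore did not read single UMIs as expression. The median B cell had 5219.5 to 11211 UMIs by mouse. At 10 UMIs or more, a limit set after the data were seen, 23 of 67, 7 of 28, 14 of 50 and 8 of 34 cells were Ccl5-high in WT mice 1 and 2 and Tubb3-/- mice 1 and 2 (34.3%, 25%, 28.0% and 23.5%). The groups overlapped (exact permutation test, p = 0.667). The 52 Ccl5-high cells had a median of 7869 UMIs and the 127 others 8156, so depth was similar.

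**Figure D4:**
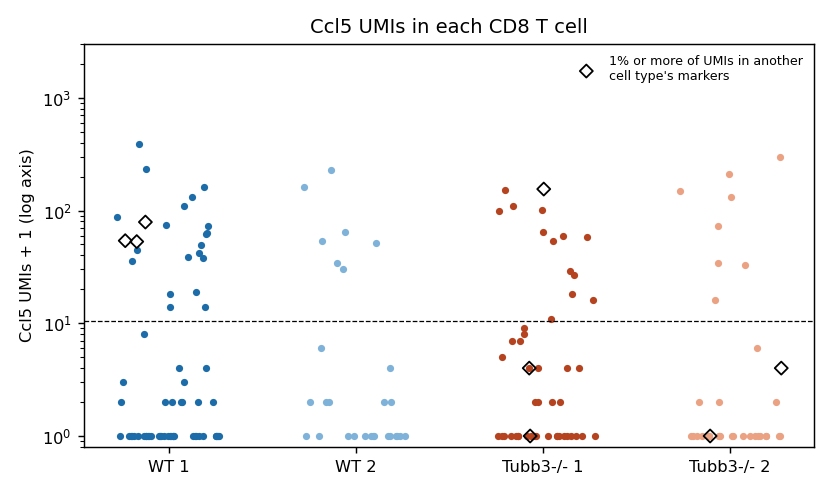
Ccl5 UMIs plus 1 (log axis) in each of the 179 CD8 T cells, by mouse. Diamonds mark the 8 cells with at least 1% of their UMIs in the markers of another cell type, and the dashed line separates the 52 cells with 10 or more UMIs, which occur in every mouse.

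Since the split was made on these cells, what follows is a description without a test. Cells are those left after removing the 8 cells rich in other markers, 48 Ccl5-high and 123 Ccl5-low, and values are CPM of the pooled UMIs. Of 3038 genes with a mean of 50 CPM or more over the 8 sums of class and mouse, 13.2% were higher in the Ccl5-high cells of all 4 mice and 9.08% lower in all 4. Of the 25 genes of the cytotoxic list 16 reached that mean, and all 16 were higher in all 4 mice (median log2 ratio 2.39, against 0.0885 over all genes), and of the naive list 9 of 12 were lower in all 4 (median -0.788). A gene could reach this mean through the Ccl5-high cells alone, as Tbx21 and Cx3cr1 below did, so the counts are partly set by the filter. Gzma had 676, 1568, 1395 and 1893 CPM in the Ccl5-high cells of the 4 mice and 10.4, 23.1, 7.12 and 5.00 CPM in the Ccl5-low cells, so that nearly all Gzma RNA lay in Ccl5-high cells. It was in a minority of them, since 16 of the 48 Ccl5-high cells had a Gzma UMI, against 8 of the 123 Ccl5-low cells. Tbx21 (197 against 17.3 CPM), Cx3cr1 (98.7 against 5.78), Klre1, an NK receptor (184 against 6.74), Klrk1 (173 against 23.1) and Serpinb9, an inhibitor of granzyme B (258 against 42.4), followed the same direction. Gzmk and Cst7, below that mean, were higher in 3 of 4 mice. Receptors of NK cells moved with them, with Klrb1c and Klra9 at 54.8 CPM each in Ccl5-high cells and at 0 in Ccl5-low cells. Of all 179 cells, those with a Klrb1c UMI were 7 of the 52 Ccl5-high and 0 of the 127 others, and those with an Ncr1 UMI 6 and 1. Their part in the difference was not tested. Nkg7 was less exclusive (1118 against 289 CPM). Ly6c2 had 732 against 230 CPM.

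With all 179 cells and the same filter on the mean, 12.5% of 3043 genes were higher in the Ccl5-high cells of all 4 mice and 8.31% lower, against 13 and 0 of 14 cytotoxic and 0 and 7 of 11 naive genes. Without the 8 cells, the Ccl5-low cells had more Dapl1 (173 against 21.9 CPM), Ccr7 (573 against 260), Lef1 (1333 against 650) and S1pr1, the receptor for exit from lymphoid organs (294 against 170). Zbtb16, the PLZF factor of innate-like T cells, had 100.2 against 10.96 CPM, but was lower in the Ccl5-high cells of only 3 of 4 mice. With all 179 cells, Gzmk, another granzyme, had a UMI in 21.2% of Ccl5-high and 0.787% of Ccl5-low cells, and Cxcr3 in 38.5% and 7.09%. Itgae, the CD103 integrin of resident cells, ran the other way, at 7.69% and 25.98%. In B cells, Gzmk was found in 0.0901%, Cxcr3 in 1.89% and Itgae in 4.14%. With all cells, the dendritic cell genes H2-Aa (881 against 41.3 CPM) and Irf8 were also high in the Ccl5-high class. Without the 8 cells, H2-Aa was at 63.0 against 42.4 CPM.

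A coarser division by presence of RNA gave few unmixed cells. Effector-marked cells had Ccl5 or Nkg7 without Ccr7 and Lef1, and naive-marked cells the reverse. Here a single UMI sufficed, although B cells had a Ccl5 UMI in 18.1% of cells without thinning and in 4.81% after it. For Nkg7 these shares of B cells were 3.15% and 0.999%. With each cell thinned to 1500 UMIs (178 cells, 1 being shallower), 16.3% were effector-marked, 32.0% naive-marked, 39.9% both and 11.8% neither. Without thinning the shares were 8.38%, 15.6%, 73.2% and 2.79%. Effector-marked cells made up 17.9% and 7.14% of WT and 22.0% and 12.1% of Tubb3-/- CD8 T cells after thinning, which overlap (exact permutation test, p = 0.667). The difference of 4.53 percentage points turned to -2.32 without thinning. After thinning, Gzmb had a UMI in 5.62% of CD8 T cells and 0.817% of B cells, and Cxcr3 in 3.93% and 0.454%. B cells had Itgae in 1.09% and Cxcr6 in 0.817%. Among the shares of cells with chosen genes, the genotypes did not overlap for several, among them Gzmb (WT 4.02% ± 0.641, Tubb3-/- 7.03% ± 1.37, SD, n = 2; exact permutation test, p = 0.3333), Itgae (7.01% ± 4.86 and 2.52% ± 0.729) and Cxcr6 (11.6% ± 3.77 and 6.03% ± 0.0429). Il7r (73.1% and 78.6% in WT, 48% and 63.6% in Tubb3-/- mice) and Trdc did not overlap either. By the exact permutation test any such separation has p = 0.3333, the share of random splits of the 4 mice that separate them. Without thinning Gzmb, Itgae and Cxcr6 overlapped between the genotypes, while Il7r and Trdc did not.

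The sums of 15 effector-marked and 28 naive-marked cells were compared within mice with edgeR, leaving out the 4 genes that define them. The classes were made from RNA of these same cells, so the test describes the split and is no independent evidence for it. Of 510 genes tested, 11 differed (2.16%), 5 higher in effector-marked cells (0.98%) and 6 lower (1.18%), although a sum held only 1 to 9 cells. The long noncoding RNA AW112010, induced in activated T cells, had 712, 1113, 2143 and 1270 CPM in effector-marked and 190, 61.5, 102 and 75.4 CPM in naive-marked cells (log2 fold change 3.43 ± 0.56, SE; edgeR, adjusted p = 0.0104). Rgs1, a regulator of chemokine signalling, Hmgb2, Cd52 and Tmsb4x, which binds actin, were higher by 3.17, 2.09, 1.60 and 1.23. Ppm1h, Foxp1, Bach2 and Satb1, the last 3 being factors of the quiescent T cell, were lower by 2.90, 2.50, 2.49 and 2.27. The ribosomal protein genes Rps20 and Rps19 were lower by 1.22 and 1.14. In Tubb3-/- mouse 2 the effector-marked sum was 1 cell of 3448 UMIs, with 0 CPM of Ppm1h, Foxp1, Bach2 and Satb1. Without WT mouse 1 a single gene passed, without WT mouse 2 7 and without Tubb3-/- mouse 2 21.

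Between genotypes, no gene of CD8 T cells passed the test. Of 4994 genes in the summed CD8 T cells of 2 Tubb3-/- and 2 WT mice, edgeR called 0 at an adjusted p under 0.05 (0%) and DESeq2 0, while 271 (5.43%) had an unadjusted p under 0.05 in edgeR. The median log2 fold change, Tubb3-/- over WT, was -0.00732. In each list the count called was therefore 0. The count depended on single mice, with 23 calls without WT mouse 1, 87 without WT mouse 2, 67 without Tubb3-/- mouse 1 and 93 without Tubb3-/- mouse 2, where 1 group is a lone mouse assumed to vary like the other group, and the spread rests on 1 pair.

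Cytotoxic and receptor genes did not pass. Ccl5 had 3192 and 2762 CPM in the WT and 2250 and 3171 CPM in the Tubb3-/- mice (log2 fold change -0.14 ± 0.16, SE), and Nkg7 460 and 428 CPM against 528 and 459 CPM. Gzma had 172 and 441 CPM in WT and 453 and 429 CPM in Tubb3-/- mice, with WT mouse 1 standing apart. The 18 cytotoxic genes tested had a median of 0.164, and the 17 of the T cell receptor and its signalling 0.0699. Cxcr3, the receptor for CXCL10, was found in 29 of 179 cells and had 27.0 and 35.0 CPM in WT and 27.3 and 20.1 CPM in Tubb3-/- mice (-0.30 ± 0.51, SE; edgeR, unadjusted p = 0.565, adjusted p = 0.995). At 42 UMIs in all, a difference of this size was not detectable. Tubb3 itself had 4 UMIs in 2 cells of WT mouse 2 and 1 UMI in a cell of Tubb3-/- mouse 2.

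Several genes did not overlap between the genotypes but failed the correction, which holds for 34.7% of all genes tested (16.7% higher and 18% lower in both Tubb3-/- mice). The immediate-early genes Egr1, Fos and Jun, which stimulated cells induce within minutes, were among them. Egr1 had 48.9 and 74.3 CPM in WT and 198 and 127 CPM in Tubb3-/- mice (1.51 ± 0.32, SE; edgeR, unadjusted p = 0.000902, adjusted p = 0.474), but 34 of its 171 UMIs were in 1 cell, and the change was 0.92 without the 8 cells rich in other markers (adjusted p = 0.848). It was 1.53 and passed when 1 UMI of each excluded gene was allowed (edgeR, adjusted p = 0.0333), a variation added with the data in view. Fos had 231 and 341 against 569 and 472 CPM, and Jun 251 and 271 against 437 and 415 CPM (edgeR, adjusted p = 0.537 and 0.584). Nr4a3, of the same list, had the opposite direction, 209 and 214 against 134 and 93.8 CPM. Junb and Ier2 overlapped, and the median of the 11 genes tested was 0.149. The 8 fibroblast and mural cell markers in the same sums had a summed level of 410 and 366 CPM in WT mice. It was 1439 and 1060 CPM in Tubb3-/- mice. Without the 8 cells, of which 1 in each Tubb3-/- mouse was rich in these markers, it was 422 and 366 against 546 and 591 CPM. With all cells, each marker was found in some mouse. Rgs5 was at 0 in WT mouse 1 and Tubb3-/- mouse 2, and Cox4i2 in WT mouse 2 and Tubb3-/- mouse 1.

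Ccr7 had 676 and 581 CPM in WT and 390 and 385 CPM in Tubb3-/- mice (-0.70 ± 0.18, SE; edgeR, unadjusted p = 0.00285, adjusted p = 0.528). Satb1, at 1794 and 1564 against 1330 and 1249 CPM, and Bach2 were lower in both Tubb3-/- mice as well. The naive list had a median of -0.225 over 12 genes. The chemokine receptors Ccr2 (52.3 and 61.2 against 18.2 and 10.0 CPM) and Ccr9, the receptor for homing to the gut (43.8 and 69.9 against 2.28 and 23.4 CPM), were lower in both Tubb3-/- mice, and the 8 receptors tested had a median of -0.521. Interferon response genes had a median of -0.220 over 11 genes, Igtp being at 60.7 and 52.4 against 36.4 and 26.8 CPM.

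Genes with the smallest unadjusted p included Gm11290, a long noncoding RNA (91.0 and 96.1 CPM in WT against 27.3 and 20.1 CPM in Tubb3-/- mice), Ramp3, a partner of calcitonin family receptors (152 and 284 against 47.8 and 10.0 CPM), both at an adjusted p of 0.312 (edgeR), Got1, Zeb1, a zinc finger repressor (1443 and 1258 against 927 and 733 CPM), and Tbc1d4, of whose 102 UMIs 47.1% were in 1 cell. Without the 8 cells Ramp3 and Gm11290 had adjusted p-values of 0.0549 and 0.0685 (edgeR), which still did not pass. On the other side, Runx2, a transcription factor best known from bone, had 37.1 and 30.6 CPM in WT and 100.2 and 80.4 CPM in Tubb3-/- mice (1.38 ± 0.33, SE; edgeR, adjusted p = 0.528). Ccl6, Chil3 and Bgn, genes of macrophages and matrix, were also higher in both Tubb3-/- mice. One cell held 67.7% of the Ccl6 UMIs and 54.9% of the Chil3 UMIs, and without the 8 cells the log2 fold change of Chil3 was -0.38 in place of 1.74 and that of Ccl6 0.89 in place of 2.68.

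Of 8 markers of gamma-delta T cells, 2 were tested, Trdc and Cd163l1, and neither passed, although both were higher in both Tubb3-/- mice. The summed level of the 8 was 55.9 and 17.6 CPM in WT and 166 and 189 CPM in Tubb3-/- mice. Each of the 8 genes was found in some mouse, but most were at 0 in others. Tcrg-C4 was at 0 in both WT mice, and Trdv4 in all mice but Tubb3-/- mouse 2. Trgv2 went against the sum and was lower in both Tubb3-/- mice (0 and 3.35 against 3.37 and 4.37 CPM). Trdc alone had 11.8 and 4.37 against 52.4 and 56.9 CPM (2.48 ± 0.54, SE; edgeR, unadjusted p = 0.00103, adjusted p = 0.474), from 4 cells in WT and 6 in Tubb3-/- mice, and Cd163l1 differed by 2.32. Their part in the other differences was not tested.

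**Figure D5:**
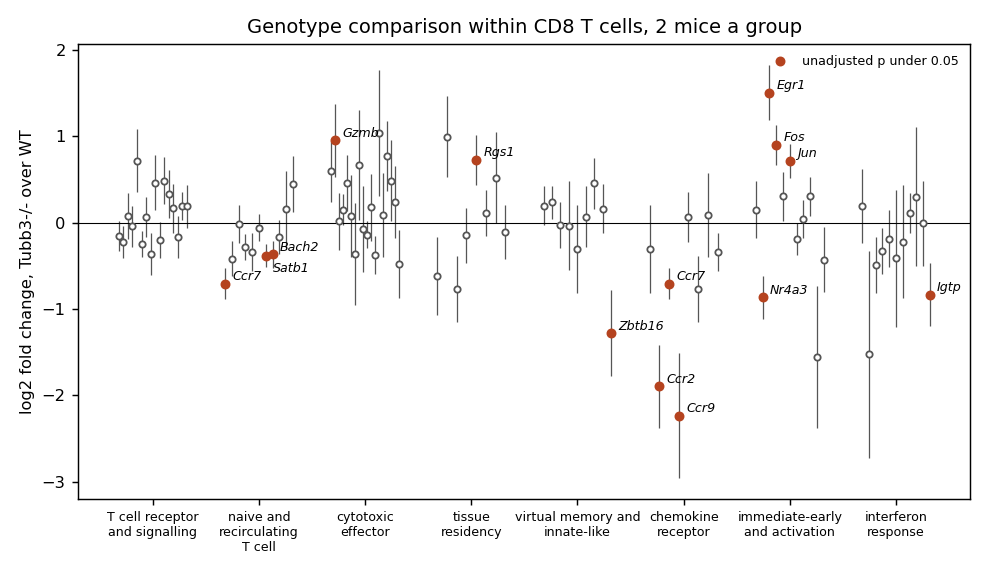
Log2 fold change of Tubb3-/- over WT mice in CD8 T cells (y axis, SE bars, 2 mice a group) for tested genes of 8 lists (x axis). Filled points had an unadjusted p under 0.05, and none passed after adjustment. Ccr7 is in 2 lists and appears in both.

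Whether a genotype difference was particular to CD8 T cells was tested as the interaction of genotype and cell type over the CD8 and CD4 sums. Of 5547 genes, edgeR called 0 (0%) and DESeq2 0, with 205 (3.7%) at an unadjusted p under 0.05. In edgeR, 24 passed without WT mouse 1, 6 without Tubb3-/- mouse 1 and 3 without Tubb3-/- mouse 2. H2-Ab1, an MHC class II chain, had the smallest p among genes with a higher log2 fold change in CD8 than in CD4 T cells (3.06, adjusted p = 0.544 by edgeR). Its CD8 values overlapped, at 128 and 79.8 CPM in WT and 296 and 62.6 CPM in Tubb3-/- mice. In CD4 T cells both Tubb3-/- mice were lower, at 73.7 and 68.7 CPM against 362 and 428 CPM in WT. Without the cells rich in other markers the interaction of H2-Ab1 was -0.0425. Runx2 (CD8 38.5 and 32.9 CPM in WT and 103 and 83.4 CPM in Tubb3-/- mice, CD4 117 and 113 against 90.1 and 94.5 CPM) was among the genes that followed. In the other direction Ramp3, Frs2 and Trat1, an adaptor of the T cell receptor, headed the list.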

How the data were processed

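The authors deposited raw UMI counts for each cell and gene, made with Cell Ranger 7.1.0 on mm10 plus a Cre sequence. The deposited values are whole numbers, and no correction for background RNA was made here. Tag counts in the files were set aside. Cells with 200 to 7500 genes and at most 15% mitochondrial UMIs were kept (14160 and 16700 cells of the whole-cell and mural cell-enriched pools, with library medians of 9436 to 16495 UMIs), and doublets were scored with Scrublet in scanpy 1.11.5. The cells and gene lists were chosen with earlier results of these data known. Conventional CD4 T cells had Cd3e and Cd4 and none of Cd8a, Cd8b1, Foxp3 and the 5 markers of other cells. NK cells had Ncr1 and none of the CD3 genes, Cd8b1, Cd4 and the same 5 markers. UMIs were summed per mouse and tested with edgeR 4.0.16 (filterByExpr, TMM, glmQLFit, glmQLFTest) with Benjamini-Hochberg adjustment at 0.05, the mouse being a block in comparisons of cell types. DESeq2 1.42.0 was the alternative. The genes of both rules compared were left out of each test. Shares were compared by exact permutation over mice. The tests were tried on simulated counts. Named genes were those of the lists, Tubb3, Cxcr3 and, per comparison and direction, the 8 called genes with the largest change at a mean of 50 CPM or more and in 1 direction in all mice, or, where fewer than 3 were called, the 5 with the smallest p. By Xist and Ddx3y, replicate 1 was male and replicate 2 female in both genotypes, but the labels do not give the numbers as pairs. Gene positions are those of GENCODE vM21. Whether counting used strand is not given in the sources used here, and several named genes overlap other genes. Among them, Bach2, Foxp1, Gata3, Nav2, Ccr9 and Cx3cr1 overlap a gene on the same strand. Bend4, Lef1, Itgae, Gzmk, Cxcr6, Runx2, Runx3, Tcf7, Eomes and Tox are among those that overlap a gene on the other strand. Some genes of the lists are counted but not reported here by name.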

Additional observations from a re-analysis of the deposited data

Results flagged for a closer look

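Reads of the added Cre gene lay outside the comparisons and appeared only where the knock-in was present. The Tubb3-/- libraries held 5 Cre UMIs, 2 in the whole-cell library of mouse 1, 1 in its mural cell-enriched library and 2 in the mural cell-enriched library of mouse 2, and the 4 WT libraries held 0. No other value met a rule for a closer look.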

How the results depend on the processing

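The 16 genes with the largest differences from CD4 T cells and the 16 from NK cells were called in every alternative and without any 1 mouse, whereas of the 11 genes that separated effector-marked from naive-marked cells 6 were called in every alternative and 1 in every fit without 1 mouse. Counts of called genes moved more. Against CD4 T cells, 405 became 266 with DESeq2, 705 without the filter on low counts and 235 to 350 without 1 mouse. Against NK cells, 1309 became 824 with DESeq2 and 907 to 1204 without 1 mouse. For the effector-marked cells, 11 became 19 with DESeq2, 39 without the filter, 32 with Cd8a and Cd8b1 both required, 20 with no mouse block and 1 to 21 without 1 mouse. Between genotypes, 0 became 106 without the filter, 65 when 1 UMI of each excluded gene was allowed (chosen after seeing the data) and 23 to 93 without 1 mouse. The interaction went from 0 to 30 without the filter and 0 to 24 without 1 mouse. The cause of these moves was not tested. The difference in CD8 T cell share ranged from -0.877 to 0.224 percentage points without 1 mouse. Differences in state shares turned without thinning, to -2.32 (effector-marked), 0.776 (both) and -3.59 (neither), and without 1 mouse ranged from -0.850 to 9.92 (effector-marked), -0.684 to 3.58 (naive-marked), -15.1 to 0.305 (both) and -1.23 to 4.11 (neither). Without the 8 cells rich in other markers, Chil3 turned to -0.38 and the interaction of H2-Ab1 to -0.0425. The labels do not say that a replicate number marks a shared origin, the correlation of the deviations of same-numbered mice was 0.0758 over 4994 genes, and a fit with the replicate block called 0 genes between genotypes. The median log2 fold change of all genes moved by 0.0246 with total UMIs in place of TMM. Sums of 226940 to 590210 UMIs limit low genes such as Cxcr3.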
